A study of Mus musculus with 96 samples.

Results

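Of the 43697 HindIII fragments in the proximal part of mouse chromosome 4, 3511 (8.03%) were read in many of the control 4C libraries although all of the viewpoints lie further along the chromosome. This part runs from the centromeric end to a fixed limit. The last fragment before the limit is chr4:137982532-137985763, and every fragment that ends before the limit is called distal here for its distance from the viewpoints. A fragment was chosen as a member of this set when it held at least 1 read in at least 10 of 40 control libraries. Members were thus chosen by read counts of both alleles of lines E117 and E118 at the 10 viewpoints other than 153.4 and 153.9 Mb. The whole chromosome has 48320 such fragments. Capture in those 40 libraries is described below without a test. Where their +129 or +Bl6 values are later set against Df or +DBl6, the part they had in the choice is given beside the comparison.

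The study asked how a heterozygous deletion of several megabases near the distal end changes the contacts of chromosome 4 in mouse embryonic fibroblasts (MEFs), a culture of connective tissue cells. Contacts were read by paired-end 4C-seq from 12 viewpoints on each of the 2 homologues in 4 MEF lines, which gave 96 libraries. The viewpoints are numbered 1 to 12 and lie at 147.9, 148.9, 150.4, 150.9, 151.6, 152.1, 152.4, 152.9, 153.4, 153.9, 154.9 and 155.5 Mb. Viewpoints 1 and 2 lie upstream of the deletion, 3 to 10 inside it, and 11 and 12 between it and the telomere. The MEF lines 129S5E71, 129S5E98, 129S5E117 and 129S5E118 are written E71, E98, E117 and E118. E71 and E98 carried the deleted 129S5 chromosome (Df) beside an intact C57Bl6 homologue (+DBl6), and E117 and E118 carried an intact 129S5 chromosome (+129) beside an intact C57Bl6 homologue (+Bl6). All lines were F1 cells of a 129S5 parent with C57Bl6/J, taken from embryos of 13.5 days and used at passage 4, so every line had 1 homologue of each strain. Each group had 2 lines. Amplified DNA of E71 and E117 was purified on columns and that of E98 and E118 on beads, so each genotype has 1 line of each purification. A p-value over lines measures the spread between these lines only.

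In 4C, chromatin is cross-linked, cut with a restriction enzyme and ligated under dilute conditions, so that DNA that was close in the nucleus is joined. Inverse PCR from a viewpoint then amplifies its ligation partners, and the fragments that are read list what the viewpoint touched in at least some of the cells. Contact falls steeply with distance along a chromosome, and far contacts are known to favour chromatin of the same kind, such as gene-rich, active regions with other gene-rich, active regions. A far fragment is usually met in few cells, and a library samples few of those meetings. Fewer cells with a contact and fewer ligated copies per cell cannot be told apart in a bulk culture.

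The members are restriction fragments, and what a library reads of each is the stretch that borders a HindIII site. The ends of the member captured in the most control libraries, of the member captured in the most libraries that the choice did not use, of the first member of the chromosome, and of a member in a gene-free stretch near 67 Mb are shown, because the results below return to these 4 fragments. Each end is read 5′ to 3′ into the fragment from NCBI37 (mm9), the left end on the plus strand and the right end on the minus strand. Capitals mark the HindIII site.
chr4:128513845-128514644, left end: AAGCTTtatttatgtcttgtgtatgagtgt
chr4:128513845-128514644, right end: AAGCTTagttatgttggcctggagaaatag
chr4:126121276-126132411, left end: AAGCTTttttttttgttaagtgcaaaattt
chr4:126121276-126132411, right end: AAGCTTtccagtctctgtgtcctgattaga
chr4:11640124-11641109, left end: AAGCTTggctagtttgatggactgagtttc
chr4:11640124-11641109, right end: AAGCTTttcctatgaataaatactgactct
chr4:67014881-67016421, left end: AAGCTTaagtttgaaaagaaaaaaattatt
chr4:67014881-67016421, right end: AAGCTTtagaacaaaagaaatttgttctaa

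The depth behind these values varied widely. The 40 control libraries held 64058 to 3969613 chromosome 4 reads each (median 687922.5), of which 3845 to 303174 lay before the limit. The 8 Df libraries of viewpoints 1, 2, 11 and 12 held 69859 to 3563129 reads, and the 24 +DBl6 libraries 79030 to 3686319. Reads carry no molecular identifiers, so many reads of 1 fragment can be copies of 1 ligation. Some libraries with different labels held nearly the same reads on the members. The log read numbers of E71 and E98 on +DBl6 correlated over shared members with r = 0.942, 0.974, 0.981 and 0.973 at viewpoints 4, 6, 7 and 8. Those of E117 and E118 did so at viewpoint 9 (0.959 on +129 and 0.957 on +Bl6). At viewpoint 11, Df of E71 resembled +129 of E117 (0.712) and +DBl6 of E71 resembled +Bl6 of E117 (0.741), and at viewpoint 10 +DBl6 of E98 resembled +Bl6 of E118 (0.538). The other 166 pairs of 1 viewpoint from different lines had r from -0.370 to 0.319. Both E117 libraries of viewpoint 10 were nearly empty and captured 13 and 19 members.

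The members were a minority at the end of a long tail. Of the distal fragments, 14218 were read in 0 of the 40 control libraries, 719 in exactly 9, 594 in exactly 10 and 283 in 20 or more, and the most for any fragment was 31. Line E118, the deeper of the control lines, weighed more: with the limit set to 5 of 20 libraries, 5841 fragments met the rule in E118 alone and 2785 in E117 alone. No break separated members from the rest. Fragments just inside the limit (10 libraries) had a median length of 2340.5 bp and a median GC content of 45.3%, and those just outside (9 libraries) had 2334 bp and 44.4%. Capture in the 32 Df and +DBl6 libraries, which the choice did not use, was 16.04% per library just inside and 14.12% just outside.

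**Figure D1:**
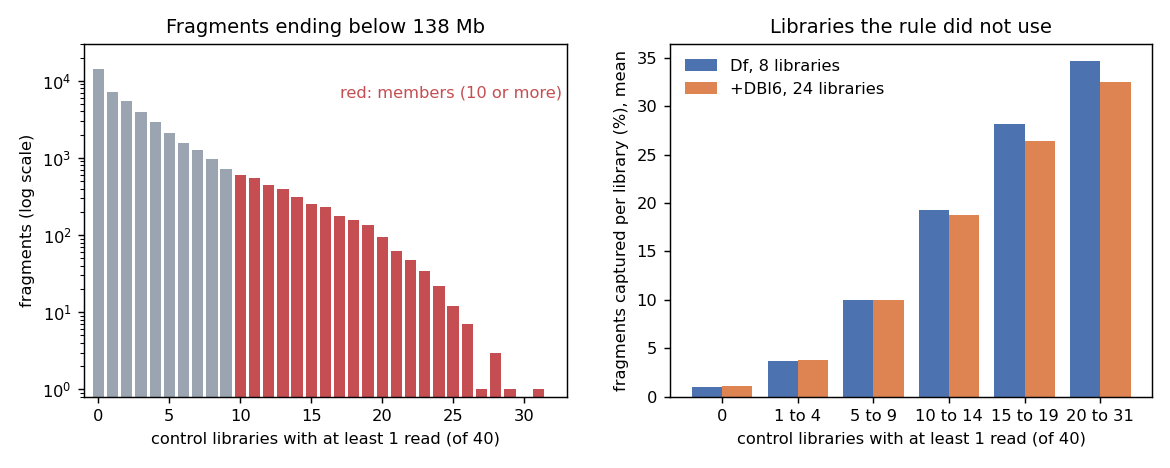
Left, number of distal fragments (log axis) by the number of the 40 control libraries with at least 1 read on them, with members in red. Right, the mean share of those fragments (%) captured per library on Df (8 libraries, viewpoints 1, 2, 11 and 12) and on +DBl6 (24 libraries), by the same count: fragments in 0 control libraries were captured in 1.04% and 1.12%, and those in 20 or more in 34.7% and 32.5%.

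Members lay mainly in the part of the chromosome nearest the limit. Between 3 and 40 Mb there were 6 members among 12782 fragments, between 40 and 100 Mb 273 (1.38%), and between 100 Mb and the limit 3232 (28.95%), which is 92.05% of all members. The share was 12.4% from 100 to 110 Mb, 26.8% from 110 to 120 Mb, 46.5% from 120 to 130 Mb and 33.8% from 130 Mb to the limit. The share of members was thus lower in the 8 Mb nearest the viewpoints than in the 10 Mb before them.

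The members formed dense blocks with sparser stretches between them. Windows of 1 Mb with at least 30% members joined into 4 blocks, at 108 to 109 Mb (32.6% of fragments), 115 to 121 Mb (48.6%), 122 to 133 Mb (52.9%) and 137 Mb to the limit (53.2%). The block from 122 to 133 Mb alone held 1560 members, 44.4% of the total. Between the blocks, members were 8.25% of the fragments from 109 to 115 Mb. That part holds the Skint genes, a family expressed in skin and thymus that shapes a class of T cells. Both ends were unique in the genome for 69.14% of its fragments, against 90.8% from 122 to 133 Mb. From 121 to 122 Mb members were 3.62%. There only 23.4% of fragments had both ends unique, and 53.3% were read in none of the 96 libraries. From 133 to 137 Mb they were 15.7%, although this stretch had 89 protein-coding gene starts, a median GC content of 48.7% and unique ends on 94.1% of its fragments. These blocks were drawn after the member shares were seen, and the 30% limit set their edges. The window from 106 to 107 Mb, with 29.1% members, fell just outside. The window from 114 to 115 Mb, between blocks, had 24.85%.

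**Figure D2:**
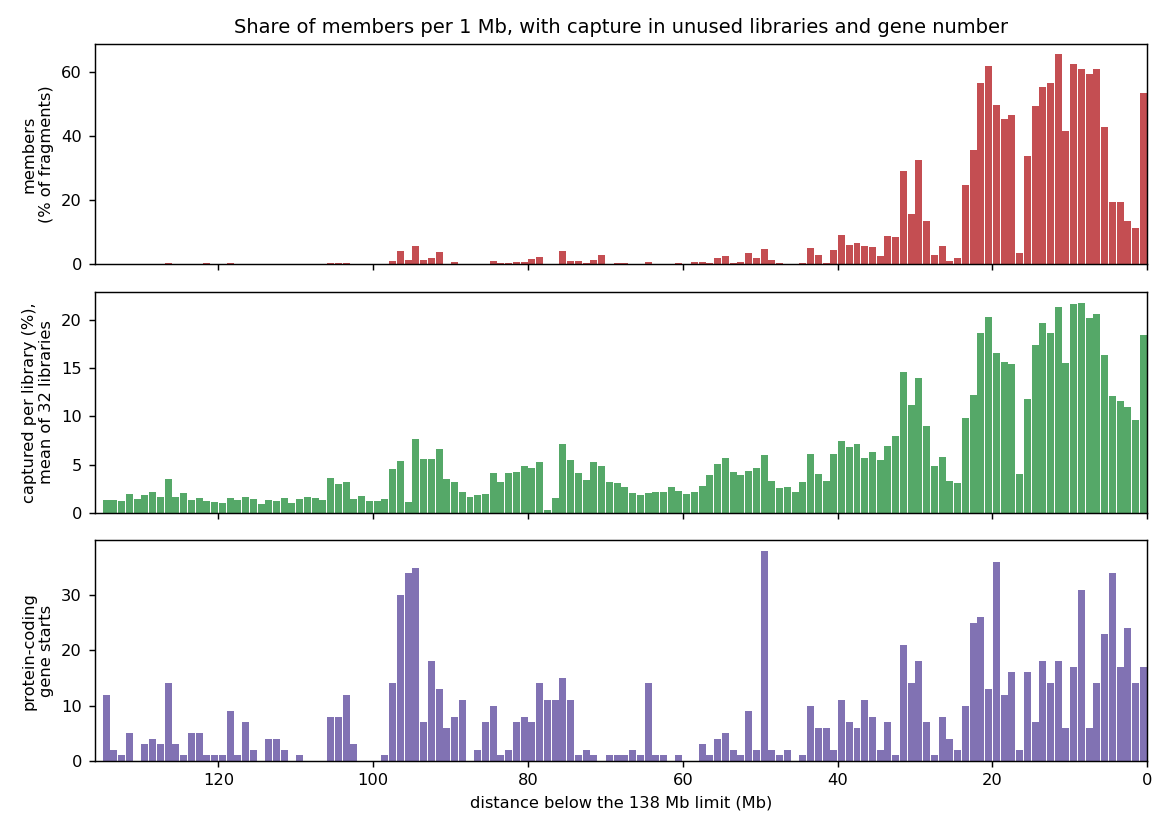
Along chromosome 4 by distance before the limit (x axis, Mb, limit at the right), per 1 Mb window: members as a share of fragments (%, top), mean share of fragments captured per library in the 32 Df and +DBl6 libraries (%, middle) and protein-coding gene starts (bottom). Members and capture in these libraries are high together from 122 to 133 Mb (52.9% and 18.5%) and low together from 109 to 115 Mb (8.25% and 5.98%), while gene starts stay high from 133 to 137 Mb (89), where members were 15.7%.

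Over the 135 windows of 1 Mb, the member share followed the mean capture in the 32 unused libraries (Spearman rho 0.93), the median GC content (0.73) and the number of protein-coding gene starts (0.66). Over the 38 windows from 100 Mb these were 0.99, 0.57 and 0.58. For the share of fragments that overlap a protein-coding gene, rho was 0.56 over the 135 windows and -0.067 over the 38. These are descriptions, because neighbouring windows share chromatin, base composition and distance from the viewpoints, and all libraries share the fragment map.

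At a finer scale, the next fragment of 1868 members (53.2%) was also a member. Joined over gaps of up to 100 kb, members fell into 142 clusters, of which 61 held 1 member, 65 held 2 to 9 and 16 held 10 or more. The 5 largest held 2936 members (83.6%). The largest, at chr4:122216498-132982533, held 1560 of its 2877 fragments. Its longest unbroken run was 14 members over Inpp5b, a phosphatase of inositol lipids, at chr4:124436547-124477245, each captured in 11 to 28 control libraries and in 4 to 16 of the 32 unused libraries. The second, at chr4:115305770-120972107, held 859 of 1652 fragments. It had the longest run of all, 16 members over Tesk2, Toe1, Mutyh (a DNA repair glycosylase) and Hpdl at chr4:116431201-116493014, each in 4 to 15 of the unused libraries.

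The other large clusters were sparser. At chr4:105564869-109640619 were 290 members of 1251 fragments, with a run of 6 over Ttc22. At chr4:136350548-137985763 were 140 members of 392, with a run of 8 over Eif4g3, a translation initiation factor, captured in 4 to 11 unused libraries each. At chr4:113976741-115165327 were 87 members of 384, with a run of 5 over Stil, a centriole duplication gene, in 1 to 8 unused libraries each. The longest gap between members was 13.35 Mb. From 100 Mb on, the longest was 0.553 Mb, from 111515761 to 112068931, and held Slc5a9, Skint1, Skint3, Skint4, Skint7, Skint8 and part of Skint9.

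Members were longer than fragments in general. Their median length was 2608 bp (quartiles 1173.5 and 5073.5), against 2105 bp for all distal fragments (833 and 4301), a ratio of 1.24. Against the 33480 fragments read in at least 1 of the 96 libraries (median 2173 bp) the ratio was 1.20. In 5 classes of equal number by length, from the shortest to the longest, members were 5.09%, 8.06%, 8.11%, 8.75% and 10.2% of fragments. Most of the difference lay between the shortest class, up to 632 bp, and the rest. From 110 Mb on, the shares were 24.2% in the shortest class and 37.0% to 39.1% in the other 4. Capture in the 32 unused libraries had the same order, from 4.19% per library in the shortest class to 6.14% in the longest.

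GC content separated members further. Their median was 46.0%, against 40.6% for all fragments, and they held 10.5 CpG per kb against 6.22. From the lowest to the highest of 5 GC classes the shares of members were 1.61%, 2.64%, 4.35%, 9.45% and 22.1%. From 110 Mb on they were 10.6%, 17.9%, 25.9%, 40.3% and 45.0%, so the order held where members are common. From 130 Mb to the limit it did not: members had a median of 47.3% and the other fragments 48.2%.

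**Figure D3:**
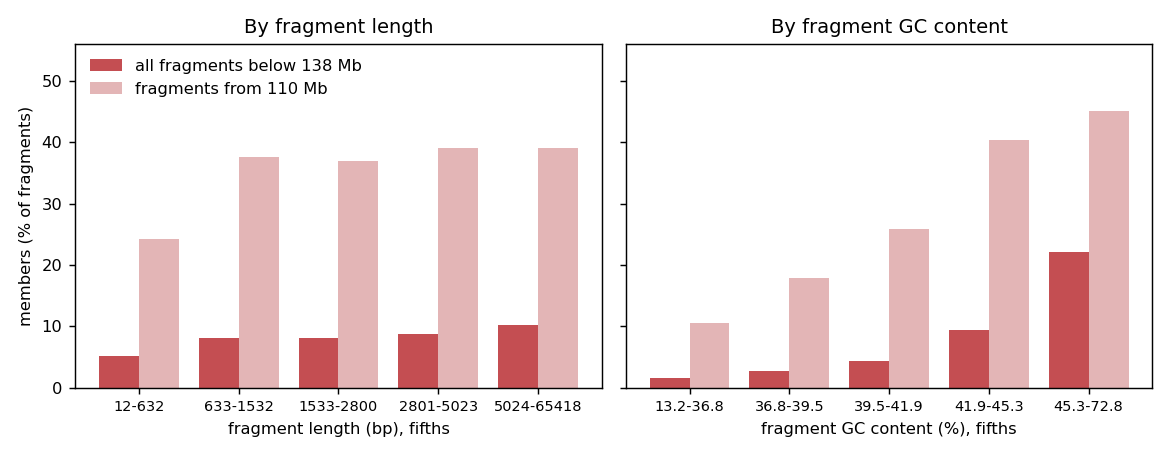
Members as a share of fragments (%) in 5 classes of equal number by fragment length (bp, left) and by GC content (%, right), for all distal fragments (dark bars) and those from 110 Mb (light bars). Over length the share rises from 5.09% to 10.2%, mostly between the lowest class and the next, and over GC content from 1.61% to 22.1% across all 5 classes.

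Members were also rich in genes and in unique sequence. They overlapped a protein-coding gene in 64.8% of cases, against 39.7% of all fragments, and an exon in 35.6% against 14.01%. A protein-coding gene started on 239 of them (6.81%), against 2.21% of all fragments. From the side of the genes, 269 of 1071 gene starts (25.1%) lay on a member. Both ends were unique in the genome for 96.4% of members and for 78.0% of all fragments, which bears on these figures because only uniquely placed reads were counted. Of the 10217 fragments never read in any library, 45.7% had both ends unique. Only 2 members had no unique end by this search, chr4:115792406-115795429 and chr4:120949796-120955242.

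The annotated genes with the most members were large and lay in the dense blocks. Csmd2 held 75 of 156 fragments as members, Macf1, a linker of microtubules and actin, 60 of 103, and Hivep3, a zinc finger transcription factor, 50 of 112. Rnf220, a ubiquitin ligase, held 39 of 70, the sialyltransferase gene St3gal3 39 of 50, and Epb4.1, a membrane skeleton protein, 34 of 48. In 9 of the 628 genes with at least 5 fragments every fragment was a member: Mob3c, Toe1, B4galt2, Heyl, Trappc3, Trim62, Zbtb8a, Bsdc1 and Rcc1. Long genes outside the blocks held few. Ptprd had 0 of 802, Lingo2 0 of 449 and Astn2, at 65 Mb, 1 of 362. Agbl4 and Dab1, between 103 and 112 Mb, had 19 of 407 and 10 of 387.

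Gene families were taken by name, and some of them held few members or none. The 103 fragments on the 21 Mup genes, which encode urinary pheromone carriers, held 0 members, but only 6 of them had both ends unique and 85 were read in none of the 96 libraries, so they could hardly be counted. Counted gene by gene, 0 of 17 fragments on the 16 Ifn interferon genes and 4 of 499 on the 11 Skint genes were members. Skint6 lies between 112 and 113 Mb and Skint5 between 113 and 114 Mb. Only 51.85% and 41.36% of all fragments in these windows had both ends unique. A further limit is that 29.32% and 35.8% of them were read in none of the 96 libraries. Part of the Skint array could thus hardly be counted. The Cyp4 fatty acid hydroxylase genes had 4 of 72, the Olfr odorant receptors 3 of 36 and the Zfp genes 16 of 161, of which 8 lay on Zfp362. For comparison, members were 13.5% of the 17960 fragments counted over all protein-coding genes. This share was 3.75% for genes before 110 Mb, where the Mup and Ifn genes lie. It was 40.3% for genes from 110 Mb, where the Skint and Cyp4 genes lie. The Olfr and Zfp genes lie on both sides. Genes of matrix and cytoskeleton that fibroblasts use had a member in 12 of 18 cases, with 8 of 11 fragments on Ybx1, 7 of 9 on Cap1, 8 of 13 on Col16a1 and 7 of 8 on Sdc3, but 0 of 33 on Col15a1, 0 of 29 on Tgfbr1 and 0 of 25 on Tnc. The first 4 of these lie beyond 110 Mb and the other 3 before it. Position did not sort the whole list: Marcksl1 (0 of 1) and Cdc42 (3 of 15) lie beyond 110 Mb. Eps15 (7 of 32) and Nfia (9 of 159) lie before it. Of 18 transcription factor and growth control genes, 10 had a member, among them Stil (11 of 19), Jak1 (7 of 33), Hdac1 (4 of 8) and Jun (1 of 1), and Klf4 (0 of 2), Cdkn2a (0 of 7) and Pax5 (0 of 50) had none. Over all genes the share with a member was 48.8% (523 of 1071). It was 78.9% from 110 Mb (340 of 431) and 28.6% before it (183 of 640).

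Every one of the 10 control viewpoints reached a large part of the set. Viewpoint 5 (151.6 Mb) reached the most, 3157 members (89.9%) in at least 1 of its 4 libraries, followed by viewpoint 3 with 3009 (85.7%) and viewpoint 12 with 2966 (84.5%). Viewpoints 1, 11 and 4 reached 2719, 2578 and 2278. Viewpoints 6, 2 and 7 reached 1861, 1797 and 1739, and viewpoint 8 (152.9 Mb) the fewest, 1418 (40.4%). By all distal fragments captured, from 12942 at viewpoint 5 to 4573 at viewpoint 8, the order was the same apart from viewpoints 2 and 7. Of the other distal fragments viewpoint 5 reached 24.35% and viewpoint 8 7.85%. The share of members over that of others was thus lowest at viewpoint 5 (3.69) and highest at viewpoint 8 (5.14). This order did not follow the number of reads: viewpoint 12 had the fewest reads of the 10 (745100 in 4 libraries) and viewpoint 11 the most (14723107). Nor did it follow distance, since viewpoints 5 and 12 lie further from the members than viewpoint 2. In line E117 viewpoints 6, 7 and 8 reached 627, 651 and 392 members, and in line E118 1657, 1489 and 1232. The E117 libraries of these viewpoints held 3845 to 23364 reads before the limit, and those of E118 90719 to 303174. Viewpoint 8 reached the fewest in each line, and in E118 viewpoint 2 (1255) lay between viewpoints 8 and 7.

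A member was usually shared by most viewpoints but seldom by all. The most common numbers were 6 viewpoints (999 members) and 7 (977). There were 55 members reached from all 10, 2 reached from only 3, and 0 from fewer. With 4 libraries a viewpoint, the rule itself required at least 3.

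Viewpoints differed in which stretch of the chromosome they reached. The dense block from 122 to 133 Mb was compared with the sparse stretch from 133 to 137 Mb, over all fragments, in the libraries that the choice did not use. At viewpoint 8, +DBl6 of E71 and E98 captured 10.6% and 12.2% of the fragments of the dense block and 1.51% and 1.42% of the sparse stretch, 7.03 and 8.60 times as many. These are not 2 separate readings, since the +DBl6 libraries of E71 and E98 share reads at viewpoints 4, 6, 7 and 8. At viewpoint 6 the ratios were 7.31 and 5.54, and at viewpoints 7, 9 and 10 they ran from 3.25 to 4.89. At viewpoint 1 they were 1.56 and 1.31 on +DBl6 and 1.57 and 1.23 on Df. Viewpoint 2 stood the other way round. It captured 5.12% and 13.7% of the dense block and 9.35% and 23.3% of the sparse stretch on +DBl6 (ratios 0.548 and 0.586), and the Df ratios there were 0.583 and 0.554. The low share of members from 133 to 137 Mb was therefore not shared by every viewpoint: viewpoint 2 captured a larger share of that stretch than of the dense block in all 8 of its libraries.

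At viewpoint 11 the balance between these stretches differed between the deleted and the other chromosomes. Df captured 11.5% and 17.9% of the dense block and 16.7% and 24.5% of the sparse stretch in E71 and E98, ratios of 0.686 and 0.734. On +DBl6 of the same cells the ratios were 1.20 and 1.01, on +129 1.00 and 1.12, and on +Bl6 1.17 and 1.08. Both Df libraries lay below all 6 others. At viewpoint 12 the Df ratios, 2.45 and 2.27, lay below those of +DBl6 (2.72 and 2.90) but overlapped those of +129 (2.33 and 3.64). The stretches and the viewpoint were picked after these values were seen, so no test is given. The E71 and E117 libraries of viewpoint 11 share reads. Without them Df had 0.734 against 1.12 on +129, 1 library each. On Df, viewpoints 11 and 12 lie nearer along the chromosome to all distal fragments, by the length of the deletion, here and in the comparisons below. Whether this bears on the values was not tested.

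Capture of the members recurred in libraries whose counts were not used to choose them. In the 32 Df and +DBl6 libraries, 7.04% to 46.4% of members were captured per library (median 18.9%), against 1.09% to 8.22% of the other distal fragments (median 3.28%). The ratio was 3.72 to 10.2, above 1 in all 32. Not all of the 32 are independent. The E71 libraries of viewpoint 11 and the E98 +DBl6 library of viewpoint 10 share reads with control libraries, of which those of viewpoint 11 helped to choose the members, and the +DBl6 libraries of viewpoints 4, 6, 7 and 8 are 4 pairs of near copies. Without these 11, a calculation added after the data were seen, the other 21 libraries captured 7.04% to 46.4% of members (median 21.4%), with ratios of 5.05 to 10.2, and 3443 members (98.1%) were captured in at least 1 of them against 45.3% of the other fragments. These 21 still include Df and +DBl6 of the same line and viewpoint, which were split from the same sequencing reads. Counts out of 32 or of 24 libraries here include the pairs of near copies. Over all 32, members made up 24.5% to 47.0% of the distal fragments captured and took 35.8% to 55.03% of the distal reads, from 8.03% of the fragments. In the 6 control libraries of viewpoints 9 and 10 with usable depth, 31.5% to 42.2% of members were captured, with ratios of 4.81 to 5.46. E117 and E118 share reads at viewpoint 9, so those 4 libraries count as 2. Of all members, 3482 (99.2%) were captured in at least 1 of the 32 libraries, against 50.9% of the other fragments, and 29 in none.

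The contrast was smaller between neighbours. Each member was set against the other fragments of its own 1 Mb window. Members were captured in 22.2% of the 32 libraries on average and the others of the same window in 10.2%, a ratio of 2.17. Over all other fragments it was 5.77 (2.24 and 5.92 in the 21 libraries that share no reads with another line). With length class matched as well the ratio was 2.14, with length and GC class 2.11 (3441 members had such a counterpart), and with the number of unique ends in place of both 1.98. Capture in the control libraries and in the others also rose together step by step. Fragments in 1 to 4, 5 to 9, 10 to 14, 15 to 19 and 20 or more control libraries were captured in 3.77%, 9.95%, 18.9%, 26.8% and 33.1% of the 32 libraries.

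**Figure D4:**
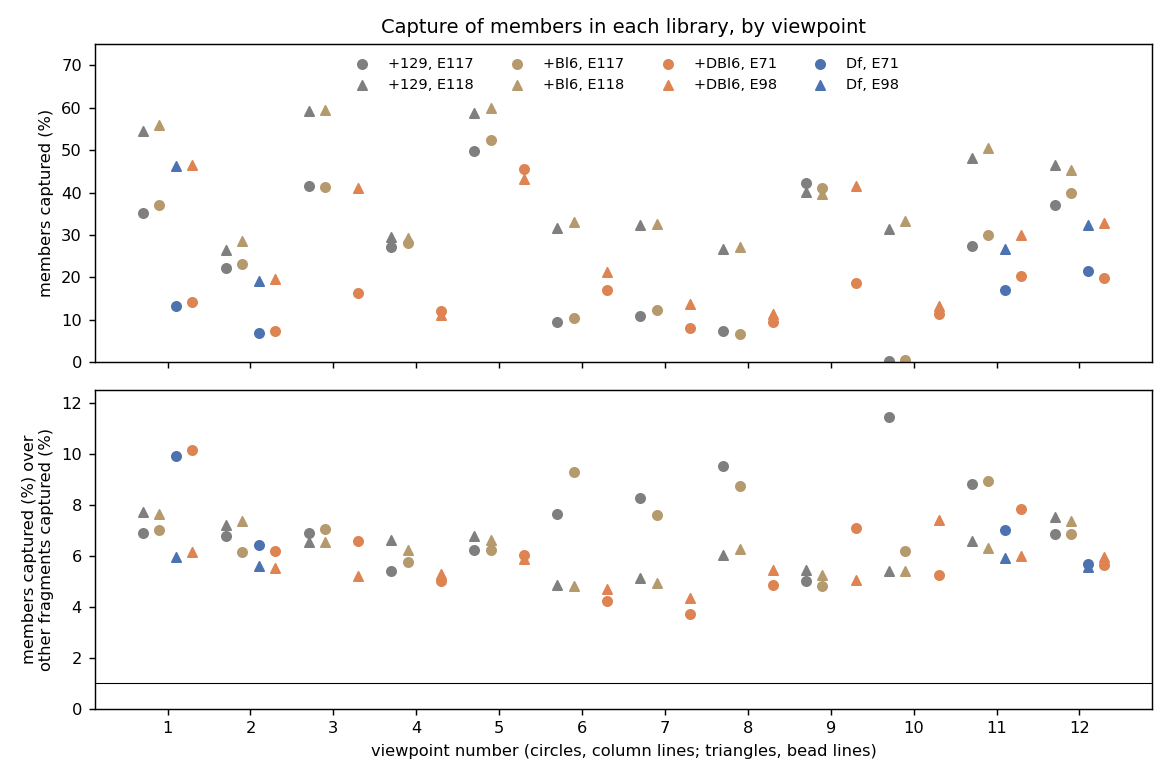
Each point is 1 library, by viewpoint: the share of the 3511 members captured (%, top) and that share over the share of other distal fragments captured (bottom, line at 1), for +129, +Bl6, Df and +DBl6, with circles for the column-purified lines and triangles for the bead-purified lines. The ratio was above 1 in all libraries shown, 3.72 to 10.2 in the 32 Df and +DBl6 libraries, of which 11 share reads with a library of another line. The share captured ran from 7.04% to 46.4% among the 32. Both E117 libraries of viewpoint 10 lie near 0 in the upper panel, and their ratios rest on 13 and 19 members.

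Although the same fragments were captured again and again, their read numbers were not repeated. The lines of 1 viewpoint and chromosome shared modest parts of their members. On Df, E71 and E98 captured 470 and 1628 members at viewpoint 1 and had 306 in common, 65.1% of the first and 18.8% of the second. At viewpoints 2, 11 and 12 they had 77, 234 and 307 in common, 31.2%, 39.1% and 40.8% of the E71 members and 11.5%, 24.97% and 26.98% of those of E98. For comparison, E98 captured 46.4%, 19.1%, 26.7% and 32.4% of all members on Df at viewpoints 1, 2, 11 and 12. E71 captured 13.4%, 7.04%, 17.1% and 21.4%. Over 166 pairs of libraries of 1 viewpoint from different lines, leaving out the pairs that share reads, the median overlap was 50.8% of the smaller library's members, and over 2327 pairs from different viewpoints it was 43.6% (median r of log reads 0.0873).

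The alleles of 1 line and viewpoint came from the same cells and the same sequencing reads, split by a polymorphism in the viewpoint read. Over the 20 control line and viewpoint pairs they shared a median of 66.7% of the smaller library's members (22.8% to 84.2%), but log reads on shared members correlated below 0 in 17 of the 20 (-0.452 to 0.188). In the 14 pairs with at least 100 members of 100 or more reads, a median of 95.8% of these were read on both alleles. The allele with fewer reads then held a median of 3.52% of the reads (1.10% to 5.63%). High reads on 1 allele thus went with a small number on the other. At the 8 viewpoints inside the deletion, where Df has no template, the 16 libraries labelled Df still held 845 to 31156 reads and captured 27 to 476 members, of which 46.4% to 100% (median 71.2%) were also captured on +DBl6. Whether reads were assigned to the wrong allele was not tested. When an allele counted only where it held at least 5% of both alleles' reads, 2671 of the 3511 fragments still met the rule, an alternative added after the data were seen.

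The member captured in the most control libraries was chr4:128513845-128514644, a fragment of 800 bp with no gene, 30.96 kb from Zfp362. It was read in 31 of 40, from 9 of the 10 viewpoints (not from viewpoint 8), with 0 to 518 reads and a median of 7.5. In the unused libraries it was captured in 13 of 32. On Df it held 25 and 18 reads in E71 and E98 at viewpoint 1. Viewpoint 2 gave 0 and 30 reads, viewpoint 11 gave 52 and 0, and viewpoint 12 gave 0 and 15. On +DBl6 the same lines had 0 and 293, 0 and 1, 2 and 30, and 0 and 0. No viewpoint had high reads in both lines of either chromosome, and the values of Df and +DBl6 overlapped.

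The member that recurred most outside the control libraries was chr4:126121276-126132411, a fragment of 11136 bp over exons of Eif2c1, which encodes an Argonaute protein of small RNA silencing. It was captured in 28 control libraries, 7 of 8 Df libraries and 16 of 24 +DBl6 libraries. Df reads in E71 and E98 were 7 and 2 for viewpoint 1, 1 and 42 for viewpoint 2, 665 and 45 for viewpoint 11 and 43 and 0 for viewpoint 12. On +DBl6, in the same order, they were 63 and 242, 30 and 125, 12 and 2, and 0 and 0. At viewpoint 2 every line had reads on every chromosome type, with 20 and 1 on +129 and 1 and 11 on +Bl6. The 665 reads of E71 stand beside 716 on +129 of E117, which shares reads with it.

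Other members captured in 26 to 28 control libraries lay in Inpp5b (chr4:124463061-124469701), near the proteasome subunit gene Psmb2 (chr4:126336950-126340732) and inside its intron (chr4:126360215-126360817), in an intron of the kinesin gene Kif17 (chr4:137820742-137821437), in Zmym1 (chr4:126727909-126728853), in an intron of Ythdf2, a reader of RNA methylation (chr4:131753011-131755854), and in the noncoding gene Gm12992 (chr4:131465282-131476051). They were captured in 8 to 15 of the 32 unused libraries. The Kif17 fragment had 150 reads on Df at viewpoint 1 in E98 and at most 16 in the other 7 Df libraries. The Psmb2 intron fragment was read on Df in 1 library, with 2 reads. A high count in control libraries therefore went with anything from 1 to 5 of the 8 Df libraries among these fragments.

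After Eif2c1, members captured often in the unused libraries lay over Csf3r, a receptor of granulocyte growth factor, and Mrps15 (chr4:125721793-125725525, 19 of 32), over Trim62 (chr4:128561043-128562293, 18), Zfp362 (chr4:128453815-128465642, 18) and in an intron of Rnf220 (chr4:117067556-117071303, 18). In all, 11 members were captured in 18, and these 3 had the most control reads among them.

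Far from the blocks, members were rare. The 6 before 40 Mb, singled out after their positions were seen, lay over Gem, a small GTPase (chr4:11640124-11641109), 289.5 kb from Ripk2 (chr4:16377554-16383097), over Fam82b and Gm12353 (chr4:19523644-19532623), 0.701 kb from Lyrm2 (chr4:32886016-32887039), over the start of Ube2j1, a ubiquitin enzyme of the endoplasmic reticulum (chr4:33117514-33120511), and over Zfp292 (chr4:34765266-34768470). They were captured in 10 or 11 control libraries from 5 or 6 viewpoints. On Df, 4 of the 6 were read in 0 of 8 libraries, the Lyrm2 fragment in 1 with 1 read and the Zfp292 fragment in 1 with 179 reads. The Gem fragment was captured in 7 of 24 +DBl6 libraries, with at most 18 reads. The fragment 289.5 kb from Ripk2 was captured in 3 of them, with at most 4144 reads. Where captured in control libraries, these 2 had medians of 2 and 32 reads.

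A stretch of 135.2 kb at chr4:67014881-67150038 held 9 members among 35 fragments, with no protein-coding gene within 100 kb and a median GC content of 37.0%. The 701 fragments flanking it held 5. It too was singled out after its members were seen. In the control libraries its fragments were captured in 12.1% of cases against 5.22% in the flanks, in the 32 unused libraries in 10.8% against 4.61%, and on Df in 7.14% against 3.17%. From viewpoint 11 the control value was 1.43%. Most captures here were of few reads. In the 32 libraries of viewpoints 1, 2, 11 and 12, 4 of the 9 members reached over 10 reads. The highest values there were 55 reads on +129 of E118 and 53 on Df of E98, both on chr4:67134663-67149653 at viewpoint 1. Some values were higher at other viewpoints. In control libraries chr4:67055317-67056275 reached 307 reads and chr4:67101502-67105650 reached 238. On +DBl6 chr4:67093367-67096033 reached 483 reads and chr4:67134663-67149653 reached 275. The member of the stretch reached from all 10 viewpoints, chr4:67014881-67016421 (20 control libraries), had a median of 1 read where captured. It had 49 reads on +Bl6 of E118 at viewpoint 11 and at most 3 on Df. The Df reads in E71 and E98 were 0 and 3 for viewpoint 1 and 1 and 2 for viewpoint 2. They were 0 and 0 for viewpoint 11 and 1 and 0 for viewpoint 12. Of the 35 fragments, 57.1% had both ends unique.

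The deleted chromosome was compared with its intact homologue in the same cells at viewpoints 1, 2, 11 and 12. Counts of these libraries were not used to choose the members, but those of E71 at viewpoint 11 share reads with the E117 libraries of that viewpoint, which were. At viewpoint 1, Df captured 13.4% and 46.4% of members in E71 and E98 and +DBl6 14.2% and 46.4%. At viewpoint 2 the shares were 7.04% and 19.1% on Df and 7.35% and 19.7% on +DBl6. At viewpoint 11 they were 17.1% and 26.7% against 20.3% and 29.96%, and at viewpoint 12 21.4% and 32.4% against 19.8% and 32.8%. The lines differed far more than the homologues. E71 had the lower share at each viewpoint, and fewer reads at viewpoints 1, 2 and 11, while at viewpoint 12 the 4 libraries held 290219 to 334767 reads. The mean difference, Df minus +DBl6, was -0.456 percentage points at viewpoint 1 (29.9% ± 23.3 against 30.3% ± 22.8, SD, n = 2 each, exact permutation p = 0.667). It was -0.456 at viewpoint 2 (13.1% ± 8.54 against 13.5% ± 8.74, exact permutation p = 0.667) and -3.25 at viewpoint 11 (21.9% ± 6.81 against 25.1% ± 6.85, exact permutation p = 0.667). At viewpoint 12 it was 0.627 (26.9% ± 7.77 against 26.3% ± 9.18, exact permutation p = 1). These tests are two-sided, and 2 lines against 2 cannot go below 0.3333.

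Since both homologues come from the same cells, the lines pair them. Within E71 and E98, Df minus +DBl6 at viewpoint 1 was -0.854 and -0.0570 percentage points. Viewpoint 2 gave differences of -0.313 and -0.598, and viewpoint 12 of 1.62 and -0.370. At viewpoint 11 the differences were -3.22 and -3.28, nearly equal in both lines and lower on Df. Other distal fragments were captured less on Df at viewpoint 11 too, 2.43% and 4.52% against 2.59% and 4.999% on +DBl6. Members over others gave ratios of 7.03 and 5.91 on Df and 7.84 and 5.99 on +DBl6. With members chosen without the control libraries of viewpoint 11, an alternative added after the data were seen, the mean difference there was -3.35 in place of -3.25, and the E98 value, -3.28, does not rest on the libraries that share reads. With 2 pairs the smallest possible exact p is 0.5. By position, a look taken after the difference was seen, the gap at viewpoint 11 was widest from 120 to 130 Mb. There Df captured 14.3% and 22.6% of 1332 members and +DBl6 19.7% and 28.5%. From 130 Mb to the limit Df captured 27.6% and 38.5% of 675 members and +DBl6 27.6% and 38.1%.

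Against +129 of the control lines, the mean share of members captured on Df was lower at all 4 viewpoints, within the spread of the lines at 3 of them. Here the members were chosen anew for each viewpoint without its own control libraries (at least 9 of 36), which gave 3428 to 3768. These members still had to be captured in E117 and E118 at other viewpoints, so the choice favours a higher share in the control lines, here and for +Bl6. The mean differences, Df minus +129, were -9.99 percentage points at viewpoint 1 (28.5% ± 22.2 against 38.5% ± 12.3, exact permutation p = 0.667), -7.31 at viewpoint 2 (12.1% ± 7.84 against 19.4% ± 2.65, exact permutation p = 0.667), -12.0 at viewpoint 11 (20.1% ± 7.49 against 32.2% ± 12.9, exact permutation p = 0.667) and -11.0 at viewpoint 12 (26.5% ± 7.75 against 37.5% ± 5.98, exact permutation p = 0.3333; SD, n = 2 each). At viewpoint 12 both Df libraries lay below both +129 libraries, with the smallest p possible, and elsewhere the groups overlapped. The adjusted exact p over the 4 viewpoints was 0.667 for each. At viewpoint 1 the difference rested on E71, the library of fewest reads, and was 5.70 without it.

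The comparison of +DBl6 with +Bl6 asks the same of the intact homologue. At the 6 viewpoints without shared libraries within a group, the mean share on +DBl6 was below that on +Bl6, with differences of -10.9 percentage points at viewpoint 1, -8.39 at 2, -15.9 at 3, -6.61 at 5, -10.8 at 11 and -12.5 at 12. The groups did not overlap at viewpoints 2, 5 and 12 (exact permutation p = 0.3333 each, adjusted 0.667). Without E71 the difference at viewpoint 1 was 4.42. Divided by the share of the other fragments captured in the same library, the sign of the difference turned in 9 of the 14 comparisons of a viewpoint. The ratio itself was 5.44 ± 0.0504 on Df and 6.00 ± 0.373 on +129 at viewpoint 12, where the groups did not overlap, and 7.23 ± 2.45 against 5.69 ± 0.547 at viewpoint 1. At viewpoint 5 it was higher on +DBl6 (5.67 ± 0.270) than on +Bl6 (5.29 ± 0.237) with no overlap, the reverse of the share there. At viewpoint 12 it was lower on +DBl6 (5.62 ± 0.0622) than on +Bl6 (5.96 ± 0.296), also with no overlap. Libraries of E71 and E117 share reads at viewpoint 11, and the differences there without them were -15.9 for Df against +129 and -14.4 for +DBl6 against +Bl6, 1 library each.

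**Figure D5:**
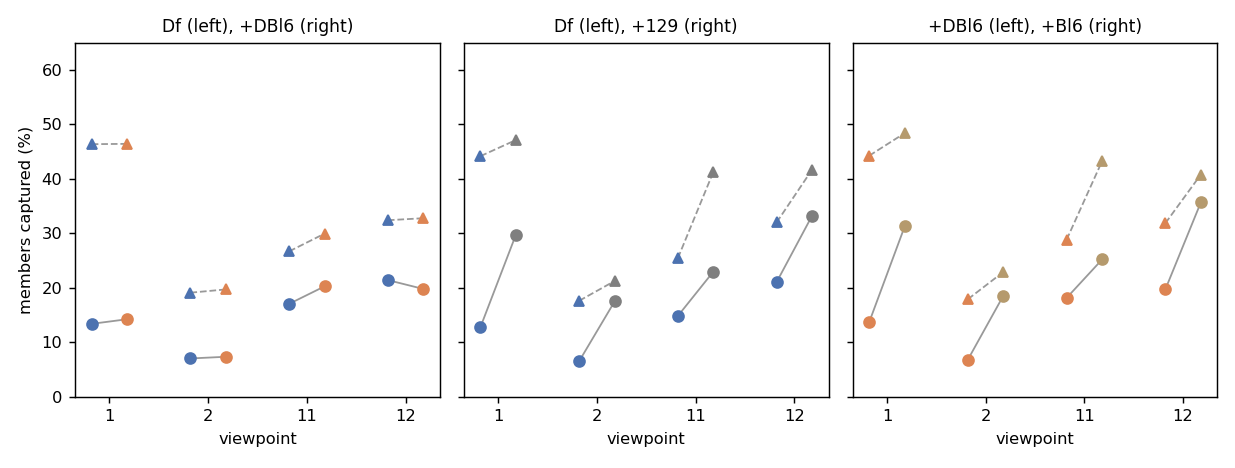
Members captured (%) at viewpoints 1, 2, 11 and 12, with each point 1 library, circles for E71 and E117 (solid lines join them) and triangles for E98 and E118 (dashed lines): Df and +DBl6 of the same cells (left), Df and +129 (middle), +DBl6 and +Bl6 (right). Lines in the left panel are nearly flat (differences of -3.28 to 1.62 percentage points), and those in the middle and right panels rise towards the control lines in every pair.

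Fragment by fragment, read numbers on the members gave no difference that passed the test. For Df against +DBl6, the quasi-likelihood test of edgeR (p adjusted by Benjamini-Hochberg) called 1 of 4742 tests at the 4 viewpoints (0.0211%), and 0 of the 1337 tests of members (1064 fragments). Of the member tests, 92 had an unadjusted p under 0.05 (6.88%, against 7.65% of all tests), 46 higher and 46 lower on Df. With the line as a block, which pairs the homologues, 4 tests were called, none of a member. DESeq2 called 46, of which 14 were members. The median log2 fold change was 0.27 over members and 0.00 over all tests.

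The member with the smallest p was chr4:95997904-95998852 in Cyp2j11, a fatty acid oxidase gene, at viewpoint 12. It held 394 and 340 reads on Df of E71 and E98 and 1 and 3 on +DBl6, a log2 fold change of 7.48 (SE 1.63, edgeR adjusted p = 0.642). Both Df libraries were far above both +DBl6 libraries. At viewpoint 1, chr4:123223389-123225914 in Macf1 held 144 and 214 reads on Df and 1 and 9 on +DBl6 (log2 fold change 6.49, SE 2.32, edgeR adjusted p = 0.642). The same fragment held 0 reads in both +129 libraries. At viewpoint 12, chr4:122550515-122556092 in Cap1, a regulator of actin, held 187 and 80 reads on Df and 0 and 0 on +DBl6. Such fragments, with many reads on 1 allele and a few on the other, were common in the control pairs too, as the allele values above show.

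For Df against +129, edgeR called 0 of 5569 tests (0%), 0 of them among 1820 tests of members. At an unadjusted p under 0.05 stood 168 member tests (9.23%, against 10.4% of all), 45 higher and 123 lower on Df. DESeq2 called 22 tests, 4 of members, and edgeR with the purification batch as a block called 10, 1 of a member. The control libraries helped to choose the members, which favours lower values on Df, so these counts are a description. At viewpoint 1, chr4:123292625-123296301, also in Macf1, held 65 and 398 reads on Df and 0 and 1 on +129. At the same viewpoint chr4:117770441-117770967 in St3gal3 held 0 and 0 reads on Df and 510 and 66 on +129. The median log2 fold change was -0.17 over members and -0.19 over all tests.

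For +DBl6 against +Bl6, edgeR called 0 of 12593 tests at 6 viewpoints (0%), with 0 of 3845 member tests. At an unadjusted p under 0.05 stood 331 member tests (8.61%, against 6.78% of all), 57 higher and 274 lower on +DBl6. The +Bl6 libraries helped to choose the members, which favours lower values on +DBl6, so these counts are a description too. DESeq2 called 6 tests, 2 of members, and the batch block 7, none of a member. At viewpoint 1, chr4:137630909-137631203 in Eif4g3 held 0 and 0 reads on +DBl6 and 534 and 424 on +Bl6, and chr4:128872633-128880220 in the tyrosyl-tRNA synthetase gene Yars held 0 and 0 against 418 and 173. At viewpoint 3, chr4:99187586-99189307 went the other way, with 1852 and 812 reads on +DBl6 of E71 and E98 and 0 and 0 on +Bl6. The median log2 fold change was -0.23 over members and -0.10 over all tests. The 3 comparisons share libraries, so their member counts are not independent of one another.

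Most members were read at least once on Df. Of the 3511, 2887 (82.2%) were read in at least 1 of the 8 Df libraries, against 23.1% of the other fragments. In the 8 +DBl6 libraries of the same viewpoints and lines, 2923 (83.3%) were read, against 23.1%. Without E71 at viewpoint 11 these were 2822 (80.4%) on Df and 2844 (81.0%) on +DBl6, of 7 libraries each. Both lines captured 806 members (23.0%) from the same viewpoint on Df at 1 viewpoint or more, against 1.17% of the others, and 140 (3.99%) were captured from all 4 Df viewpoints, against 0.102%. With the 5% allele filter, 2746 (78.2%) were captured on Df against 21.1% of the other fragments.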

How the data were processed

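PE-4Cseq was read on chromosome 4 in 96 libraries. The authors cut chromatin with HindIII and DpnII, amplified with viewpoint primers, split reads by sample and by a polymorphism in the viewpoint read, trimmed the other read to 30 bp and aligned it with bowtie (version not given in the sources used here) to sequence bordering HindIII sites of NCBI37/mm9, with at most 3 mismatches and unique placement. The deposited counts are whole reads per fragment. Duplicates cannot be removed, so a count is not a number of ligations. The authors' tables of differing regions hold their own comparisons and were not used.

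Fragment lengths, GC content, end sequences, uniqueness of the 30 bp ends in the genome and overlap with GENCODE genes were computed on NCBIM37. All 48319 HindIII sites matched a fragment end. The members and gene lists were chosen with earlier results of these data known. Fragments named are the 10 members in the most control libraries, the 6 in the most Df and +DBl6 libraries (ties by control reads), the longest run in each of the 5 largest clusters, and the 3 members with the smallest adjusted p per comparison. Of these, 2 fragments are not reported here. Others are said to have been chosen after their values were seen.

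The share of members captured was compared per viewpoint by two-sided exact permutation over lines (SciPy 1.17.1), with Benjamini-Hochberg adjustment over viewpoints. Reads of all chromosome 4 fragments over 20 kb from the viewpoint, with at least 10 reads in at least 2 libraries, were tested per viewpoint with edgeR 4.0.16 (TMM, glmQLFTest; R 4.3.3) and adjusted over all viewpoints of a comparison. The script was tested on simulated data. Alternatives were DESeq2 1.42.0, other scalings, filters, windows, member rules, thinning, left-out lines and blocks. Viewpoints 4 and 6 to 10 of +DBl6 against +Bl6 were not tested, since libraries there share reads or are nearly empty. The lines pair Df with +DBl6 because both alleles come from the same cells. E71 with E117 and E98 with E118 share the purification and, at viewpoint 11 and viewpoint 10, reads.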

Additional observations from a re-analysis of the deposited data

How the results depend on the processing

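The number of members, 3511, followed the rule closely. It was 2256, 1236 and 687 with at least 2, 5 and 10 reads a library, 283 with at least 20 libraries, 7500 with both alleles counted as 1, 1050 with libraries thinned to the smallest read total, and 2785 to 5841 with 1 control line left out. Leaving out each viewpoint in turn gave 3138 to 3908. The ratio of median lengths was 1.40 with thinned libraries and 1.18 to 1.35 in the other alternatives. Clusters numbered 239 with gaps of up to 50 kb and 78 with 200 kb. The allele filter and the thinning of compared libraries were added after the data were seen.

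The difference in the share of members captured turned sign in some alternatives. Divided by the share of other fragments it was 0.182 and -0.202 (a difference of ratios) for Df against +DBl6 at viewpoints 2 and 12, 1.54 and 0.437 for Df against +129 at viewpoints 1 and 2, and 1.77, 0.301, 0.295, 0.376 and 0.245 for +DBl6 against +Bl6 at viewpoints 1, 2, 3, 5 and 11. As the percent of distal reads that lay on members it was 4.65 and -1.14 for Df against +DBl6 at viewpoints 2 and 12, 1.57 and 5.26 for Df against +129 at viewpoints 1 and 2, and 0.448, 3.12, 1.51 and 0.268 for +DBl6 against +Bl6 at viewpoints 1, 3, 11 and 12. Thinned, Df against +DBl6 at viewpoint 1 was 0.0285, and with the allele filter +DBl6 against +Bl6 at viewpoint 5 was 0.717. The cause was not tested.

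Leaving out 1 line gave ranges, in percentage points. For Df against +DBl6 they were -0.854 to -0.0570, -0.598 to -0.313, -3.28 to -3.22 and -0.370 to 1.62 at viewpoints 1, 2, 11 and 12. For Df against +129 they were -25.7 to 5.70, -12.9 to -1.77, -21.2 to -2.85 and -16.4 to -5.48. For +DBl6 against +Bl6 they were -26.2 to 4.42, -13.9 to -2.84, -27.7 to -4.14, -10.3 to -2.98, -19.8 to -1.72 and -18.5 to -6.39 at viewpoints 1, 2, 3, 5, 11 and 12.

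Pairing left these means as they were, for example -3.25 for Df against +DBl6 at viewpoint 11 with the line as replicate block (exact p over 2 pairs 0.5). With the block, edgeR called 4, 10 and 7 fragments for Df against +DBl6, Df against +129 and +DBl6 against +Bl6, in place of 1, 0 and 0. DESeq2 called 46, 22 and 6, no filter 4, 3 and 1, and 80 kb windows 19, 49 and 2. RLE scaling gave 2 for Df against +129, and no scaling 2 and 1 for it and for +DBl6 against +Bl6. With 1 line left out these gave 0 to 6 and 0 to 3. For Df against +DBl6 this was not run, since 1 library a group leaves no residual degrees of freedom. The other comparisons were paired by purification, and E71 and E117 also share reads at viewpoint 11.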
